A study of Rattus norvegicus with 12 samples.

Results

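The genes of glycolysis, glucose transport and the response to low oxygen were examined in the transcriptome of wound tissue from diabetic rats. The list held 38 genes chosen by symbol, and 37 of them were found under that symbol among the 25620 genes of the count table, whereas Car9 was found as Ca9 through a synonym in the RefSeq gene table. The list comprised hypoxia factors, prolyl hydroxylases, glucose transporters, hexokinases, the enzymes of upper and lower glycolysis, the genes of lactate handling, pyruvate dehydrogenase kinases, and other targets of hypoxia. Of the 38 genes, 4 encode isoforms that predominate in skeletal muscle (Slc2a4, Pfkm, Pgam2, and Eno3), and these were set against the other 34.

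Young adult male SD rats were made diabetic with streptozotocin, a chemical that destroys insulin-producing cells, and each received a circular full-thickness wound on the back made with a punch. Wounds were left with normal saline only (control), or were given dried snail mucus glue from A. fulica (d-SMG), the sulfated glycosaminoglycan isolated from this glue (s-GAG), or a commercial alginate dressing (Alg). Wound tissue, labelled as skin, was collected on day 3, 7, and 14. The files used here held 1 library for each treatment and day, 12 libraries in all, and the labels do not say how many animals stand behind a library, so a difference between a treated and a control library of the same day has no replicate check. The 3 treated libraries of a day were all compared with the same control library. Diabetes was chemically induced in every group, controls included.

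The libraries held 13748887 to 38302461 reads on genes. Skeletal muscle markers (18 of 18 genes found, none at 0 in any library) summed to between 7585 and 192800 CPM (reads scaled to a common library total), whereas keratinocyte markers (15 of 15 found, none at 0) summed to 4405 to 27930 CPM in 11 libraries and to only 48 CPM in the d-SMG library of day 3. The same d-SMG library held the highest muscle sum of the 12. The s-GAG library of day 14 stood apart by gene length. On the log2 scale, genes shorter than 1 kb deviated from their mean over the libraries by a median of 1.19. Genes longer than 4 kb deviated by -0.63. In the other 11 libraries the deviation of genes shorter than 1 kb was between -0.39 and 0.20. In tissue RNA of this kind, fewer cells of a type and less RNA per cell cannot be told apart.

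Glycolysis splits glucose into pyruvate, which is turned into lactate when oxygen or mitochondrial capacity is short. When oxygen is low, prolyl hydroxylases no longer mark the factors HIF-1α (Hif1a) and HIF-2α (Epas1) for destruction. These factors then bind a short DNA core. Between them, though not with the same targets throughout, they switch on glucose transporters, glycolytic enzymes, and lactate exporters. A fresh wound is poorly supplied with blood, and its inflammatory and proliferating cells rely heavily on glycolysis, whereas skeletal muscle carries its own set of glycolytic isoforms at high levels.

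Promoter windows of 300 bases (250 before and 50 after the start) were taken from RefSeq on the GRCr8 build for 34 of the 38 genes, in 38 windows. Windows were not matched for Ndrg1, Pgk1, Slc2a3, and Slc2a4. The core of the hypoxia response element (ACGTG or GCGTG, on either strand, with overlapping matches counted separately) was present in 24 of the 38 windows (63.2%), compared with 41.6% of all 33469 promoter windows of the same length. The E-box (CANNTG, which reads the same pattern on both strands), a motif bound by muscle regulators among many other factors, was present in 24 of the 38 windows (63.2%), compared with 72.1% of all windows. The 4 windows shown belong to the muscle isoforms Pgam2 and Eno3, with the E-box in capitals, and to Bnip3 and Ldha, well known targets of hypoxia, with the hypoxia core of either strand in capitals. All are written 5′ to 3′ on the strand of the gene.
Pgam2, chr14:84897825-84898124, minus strand: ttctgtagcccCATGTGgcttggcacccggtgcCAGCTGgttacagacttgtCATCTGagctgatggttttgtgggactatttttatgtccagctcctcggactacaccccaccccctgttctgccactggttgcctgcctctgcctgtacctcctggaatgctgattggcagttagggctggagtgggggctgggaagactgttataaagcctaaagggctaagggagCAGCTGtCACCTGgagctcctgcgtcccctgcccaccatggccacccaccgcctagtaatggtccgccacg
Eno3, chr10:55868936-55869235, plus strand: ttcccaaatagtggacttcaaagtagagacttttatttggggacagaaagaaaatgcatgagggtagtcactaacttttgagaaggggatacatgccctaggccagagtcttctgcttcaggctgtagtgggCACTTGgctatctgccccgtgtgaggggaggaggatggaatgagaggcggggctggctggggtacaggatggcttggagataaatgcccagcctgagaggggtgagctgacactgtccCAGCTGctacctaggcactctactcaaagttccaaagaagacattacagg
Bnip3, chr1:203154913-203155212, minus strand: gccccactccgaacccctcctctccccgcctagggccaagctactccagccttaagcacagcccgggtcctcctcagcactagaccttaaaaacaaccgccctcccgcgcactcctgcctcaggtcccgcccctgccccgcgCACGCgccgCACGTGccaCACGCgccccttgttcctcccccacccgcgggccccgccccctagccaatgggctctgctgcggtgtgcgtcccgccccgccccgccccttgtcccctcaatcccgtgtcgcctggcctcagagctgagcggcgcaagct
Ldha, chr1:106507842-106508141, plus strand: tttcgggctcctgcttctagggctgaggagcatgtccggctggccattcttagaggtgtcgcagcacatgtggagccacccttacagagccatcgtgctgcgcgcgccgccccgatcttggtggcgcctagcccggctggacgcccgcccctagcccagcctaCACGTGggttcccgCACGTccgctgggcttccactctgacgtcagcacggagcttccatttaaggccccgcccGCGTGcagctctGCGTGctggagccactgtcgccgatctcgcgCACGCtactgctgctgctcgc
Pgam2 held 5 E-box matches and no hypoxia core, and Eno3 held 2 E-box matches and no hypoxia core. Pfkm, the remaining muscle isoform with a window, went the other way, with 0 E-box matches and 1 hypoxia core. Bnip3 held 4 matches to the hypoxia core and Ldha held 6, and these windows also held 1 and 3 E-box matches, respectively. Not all hypoxia targets were alike. Ankrd37 held 5 cores, Car9 held 1, and Adm held 0, and the hypoxia-induced genes Pdk1 and Egln3 held 4 and 0. A match describes the letters only and does not show that a factor was bound.

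The 38 genes spanned a wide range of abundance. On the scale of FPKM (fragments scaled by gene length and by mapped fragments), which allows levels to be compared between genes, Ldha was the most abundant with a median level of 304 over the 12 libraries, followed by Aldoa at 216 and Tpi1 at 196. The least abundant was Car9, a carbonic anhydrase induced by hypoxia, with 52 reads in all 12 libraries together and 21 of these in the s-GAG library of day 14. Car9 was the only gene of the list that did not pass the low-count filter, so 37 genes entered the tests. Because Gapdh, Ldha, Eno1, Pgk1, Tpi1, Pkm, Pgam1, and Aldoa have processed copies elsewhere in rodent genomes, part of their reads may be divided among copies, and their levels are uncertain to that extent.

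**Figure D1:**
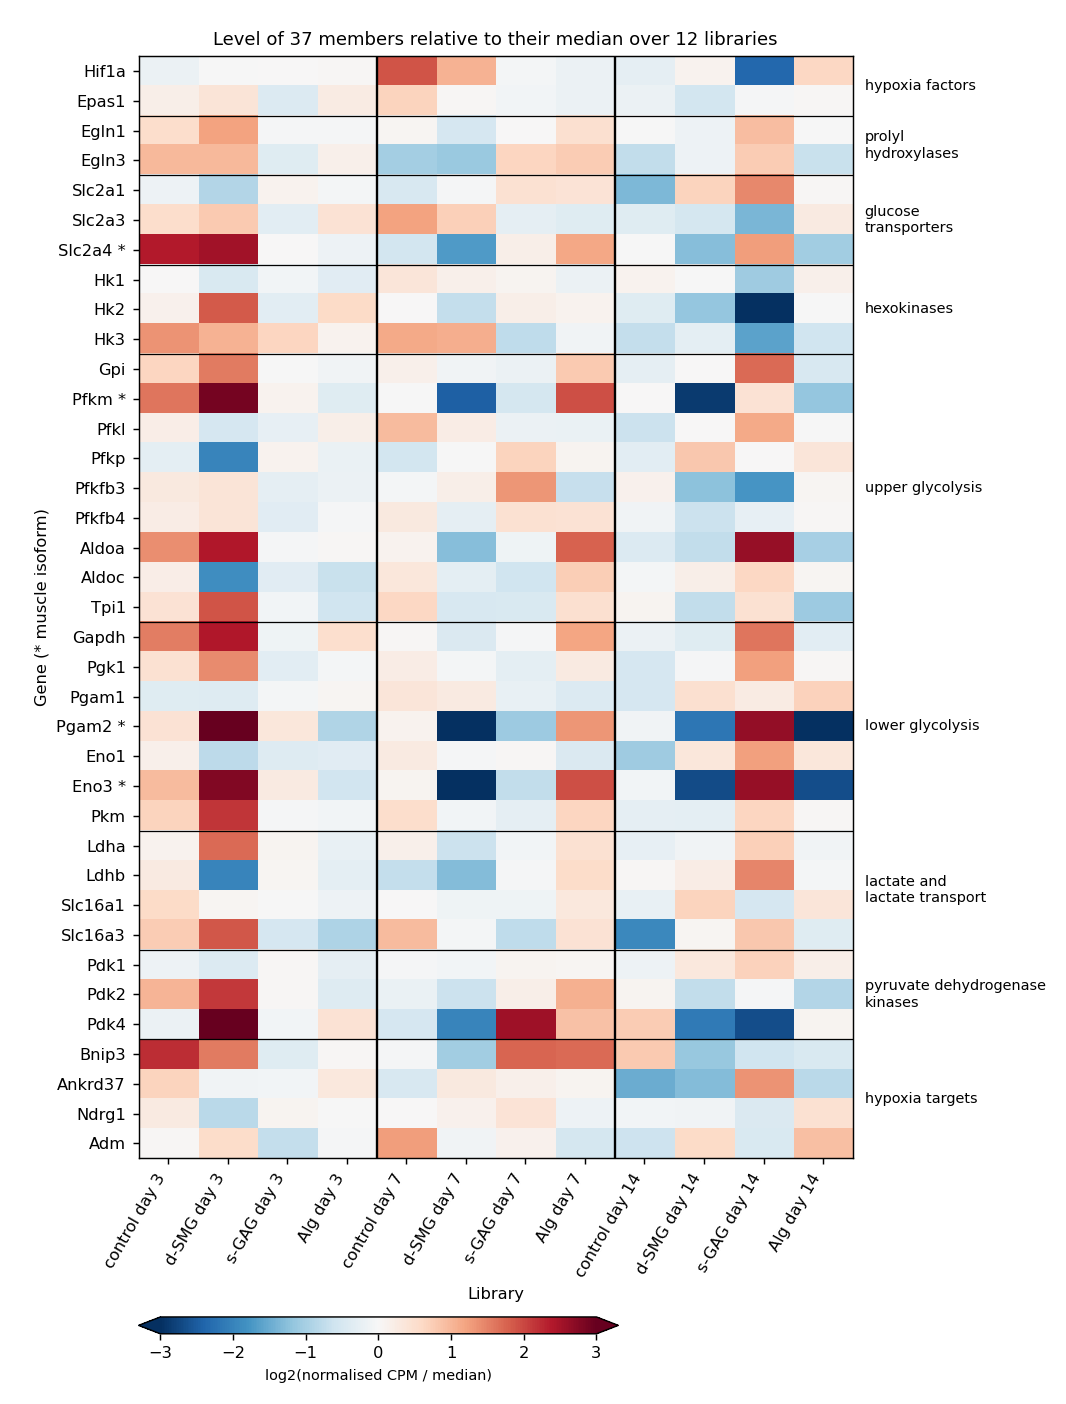
Levels of 37 genes of the list (rows, grouped by role, muscle isoforms marked with a star) in the 12 libraries (columns, grouped by day), as log2 of the normalised CPM over the median of the gene across libraries, with colours saturating at 3 in either direction. Pgam2, Eno3, and Pfkm form the most uneven rows, with a highest over lowest level of 107, 65.5, and 53.5, and the d-SMG library of day 3 holds the highest level of 15 genes.

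Hif1a, which encodes the oxygen-regulated subunit of HIF-1 and is controlled mainly at the protein level, was most abundant in the control library of day 7. Its levels in control wounds were 76.3, 318, and 71.7 normalised CPM on day 3, 7, and 14, respectively (CPM after correction of the library total by the trimmed mean of M values, TMM). In d-SMG wounds they were 85.1, 177, and 92.6, in s-GAG wounds 86.8, 83, and 16.9, and in Alg wounds 87.9, 76.1, and 132 normalised CPM on the same days. The 4 libraries of day 3 lay close together, the control and d-SMG libraries stood above the other two on day 7, and the s-GAG library of day 14 was the lowest of all 12. Epas1, the gene of HIF-2α, was steadier, with a lowest level of 77.1, a median of 113, and a highest level of 180 normalised CPM. Egln1, the main prolyl hydroxylase, ranged from 49.2 to 160 normalised CPM, and Egln3, a prolyl hydroxylase that is itself induced by hypoxia, ranged from 13.3 to 56.7. On day 7, Egln3 was at 14.1 and 13.3 normalised CPM in the control and d-SMG libraries and at 45.2 and 49.0 in the s-GAG and Alg libraries, so that the pair of libraries with more Hif1a had less Egln3 on that day.

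The glucose transporters were GLUT1 (Slc2a1), present in most cells, GLUT3 (Slc2a3), typical of neurons and leukocytes, and the insulin-regulated GLUT4 (Slc2a4) of muscle and fat. Slc2a1 was at 29.3, 23.4, and 12.9 normalised CPM in control wounds on day 3, 7, and 14, and at 17.8, 31.7, and 52.3 in d-SMG wounds. The corresponding levels were 35.1, 45.1, and 88.6 in s-GAG wounds and 31.4, 43.7, and 33.7 normalised CPM in Alg wounds. On day 7 and 14 the control library was the lowest of the 4, and on day 3 the d-SMG library was the lowest. Slc2a3 was at 19.1, 30.3, and 10.3 normalised CPM in control wounds and at 22.8, 21.8, and 9.18 in d-SMG wounds. In s-GAG wounds Slc2a3 was at 10.6, 10.9, and 5.11, and in Alg wounds at 17.7, 10.2, and 16 normalised CPM. The s-GAG library was the lowest on day 3 and 14, and the 3 s-GAG levels overlapped with those of the other treatments. On day 14 this was the library in which genes longer than 4 kb were low, and Slc2a3 has an implied length of 4720 bp.

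Hexokinases trap glucose in the cell. Hk1, the widespread form, was the steadiest, between 23.1 and 62.4 normalised CPM. Hk2, the form of muscle and of cells with high glucose demand, was at 73.1, 67.3, and 52.3 normalised CPM in control wounds on day 3, 7, and 14, at 241, 40.8, and 29.9 in d-SMG wounds, at 53.6, 76.2, and 5.18 in s-GAG wounds, and at 100 (day 3), 72.3, and 66.9 in Alg wounds. Its highest and lowest libraries were therefore the d-SMG library of day 3 and the s-GAG library of day 14, the same libraries that stood apart by marker content and gene length. Hk3, the hexokinase of myeloid cells, was at 29.9, 25.8, and 7.17 normalised CPM in control wounds and at 24.2, 25.1, and 9.62 in d-SMG wounds. In s-GAG wounds Hk3 was at 18.4, 6.93, and 3.88, and in Alg wounds at 12.6, 11, and 7.82 normalised CPM. Every library of day 14 lay below every library of day 3, and day 7 overlapped with both. The summed level of 15 myeloid markers was 1048 to 3153 CPM on day 3, 806.9 to 3833 CPM on day 7, and 343.9 to 1801 CPM on day 14, with 2 of the 15 markers at 0 in some libraries, and its part in the level of Hk3 was not tested.

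**Figure D2:**
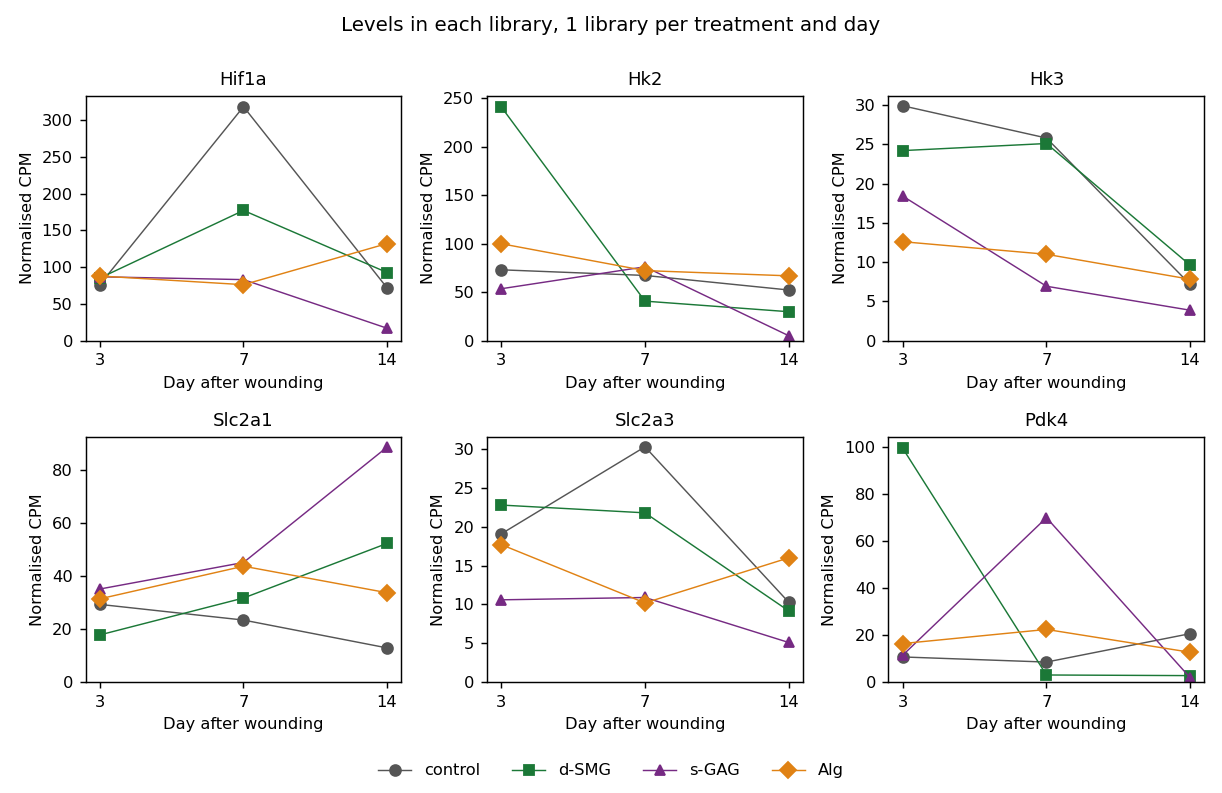
Normalised CPM of Hif1a, Hk2, Hk3, Slc2a1, Slc2a3, and Pdk4 by day after wounding, with 1 library per point and no error bars because each point is a single library (lines join the libraries of a treatment and not repeated samples of an animal). Hif1a peaks at 318 in the control library of day 7, Hk3 on day 14 (3.88 to 9.62) is below all libraries of day 3 (12.6 to 29.9), and Slc2a1 on day 14 is lowest in the control library at 12.9.

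In the 4 pairs of muscle isoform and broadly expressed counterpart, the isoform varied more over the libraries than its counterpart. Pfkm, the muscle phosphofructokinase that commits sugar to glycolysis, was at 224.5, 71.0, and 73.6 FPKM in control wounds on day 3, 7, and 14, at 401.4, 16.4, and 11.2 in d-SMG wounds, at 86.3, 51.1, and 74.2 in s-GAG wounds, and at 61.0, 257.7, and 35.9 in Alg wounds. Pfkl, the liver-type enzyme of the same step, was at 14.6, 23.7, and 8.03 FPKM in control wounds, at 6.59, 18.0, and 14.2 in d-SMG wounds, at 11.6, 11.2, and 20.8 in s-GAG wounds, and at 14.9, 10.1, and 13.5 in Alg wounds. Pfkm made up 98% of the summed FPKM of Pfkm, Pfkl, and Pfkp in the d-SMG library of day 3 and 26.4% in the d-SMG library of day 14.

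Pgam2, the muscle phosphoglycerate mutase whose promoter with 5 E-boxes is shown above, was at 194.7, 150.4, and 135.0 FPKM in control wounds on day 3, 7, and 14, and at 1034.6, 22.1, and 35.8 in d-SMG wounds. In s-GAG wounds Pgam2 was at 198.7, 67.1, and 676.9 FPKM, and in Alg wounds at 81.2, 330.5, and 14.1. Its counterpart Pgam1 stayed between 17.9 and 55.1 FPKM over the 12 libraries. The share of Pgam2 in the sum of both genes was 98.3% in the d-SMG library of day 3 and 20.4% in the Alg library of day 14.

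Eno3, the muscle enolase, was at 292.8, 155.3, and 143.7 FPKM in control wounds on day 3, 7, and 14, and at 766.9, 19.3, and 26.3 in d-SMG wounds. The levels of Eno3 were 199.9, 90.6, and 694.1 FPKM in s-GAG wounds and 108.6, 533.0, and 26.1 in Alg wounds. Eno1, the enolase of most other cells, was at 133.7, 139.7, and 56.3 FPKM in control wounds, at 51.7, 142.4, and 167.6 in d-SMG wounds, at 99.0, 121.9, and 208.3 in s-GAG wounds, and at 100.1, 81.2, and 163.7 in Alg wounds. The lowest Eno1 library was the d-SMG library of day 3, in which Eno3 was highest.

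Slc2a4 was at 25.3, 3.22, and 4.76 FPKM in control wounds on day 3, 7, and 14, at 20.6, 1.83, and 2.22 in d-SMG wounds, at 5.31, 5.47, and 8.66 in s-GAG wounds, and at 4.59, 9.84, and 2.54 in Alg wounds. On the same scale Slc2a1 was between 4.63 and 24.0 FPKM. By FPKM, Slc2a4 exceeded Slc2a1 in 3 of the 12 libraries, whereas Pfkm exceeded Pfkl in 10, Pgam2 exceeded Pgam1 in 9, and Eno3 exceeded Eno1 in 8.

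**Figure D3:**
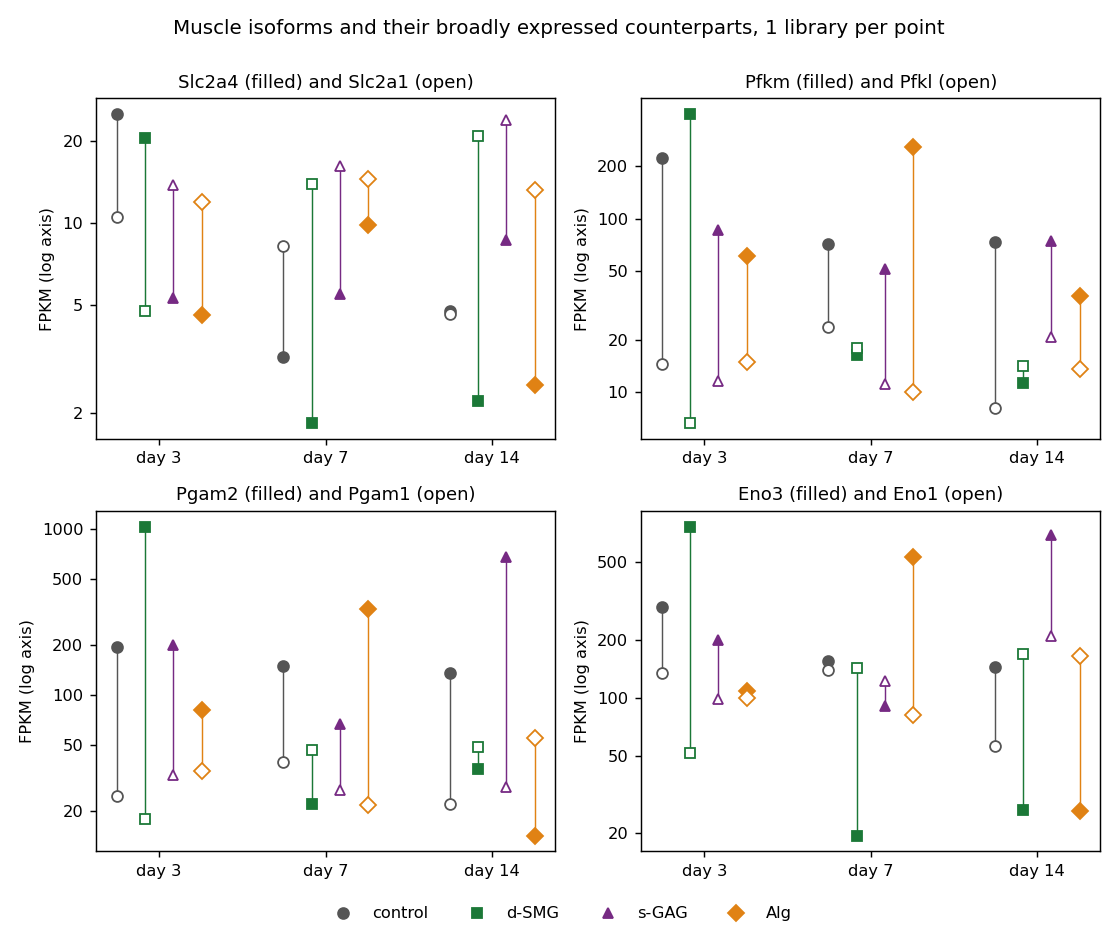
FPKM (log axis) of each muscle isoform (filled symbols) and its counterpart (open symbols) in the 12 libraries, grouped by day and coloured by treatment, with a line joining both genes of a library. The isoforms span 19.3 to 766.9 FPKM for Eno3 and 14.1 to 1034.6 for Pgam2, and the filled symbols lie lowest in the d-SMG libraries of day 7 and 14 and the Alg library of day 14.

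The same 3 libraries, namely d-SMG on day 7 and 14 and Alg on day 14, had the lowest CPM of all 4 muscle isoforms, and they were also the 3 libraries with the lowest sums of muscle markers (7585, 10730, and 14250 CPM, respectively). The highest library exceeded the lowest by 13.3-fold in CPM for Slc2a4, 34.3-fold for Pfkm, 72.9-fold for Pgam2, and 38.5-fold for Eno3. Expressed per 1000 reads of the muscle markers, which do not include these 4 genes, the corresponding spans were 5.63-fold, 3.80-fold, 6.09-fold, and 3.52-fold. Slc2a4 did not fall as far as the markers in the libraries lowest in muscle. Per 1000 muscle marker reads it was at 0.688, 0.597, and 0.494 in the 3 libraries lowest in muscle, above every other library except control on day 3 (0.76). The span left was widest for Pgam2, from 0.845 in the Alg library of day 14 to 5.15 in the s-GAG library of day 14, in which short genes were high. The muscle content of the libraries thus moved with the isoforms, though not closely for Slc2a4 and Pgam2. The part of muscle content in the differences between treatments cannot be told apart from the treatments with 1 library each.

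The log2 ratio of isoform reads to counterpart reads was compared between days, with the 4 treatments as replicates of a day. The test was an exact permutation test (two-sided, 4 libraries against 4 libraries, smallest possible p of 0.0286). Gene length does not fully cancel in these ratios, because the s-GAG library of day 14 had a length trend of its own. In its log2 ratio to control, centring by length class took Pgam2 from 2.74 to 1.01 and Pgam1 from 0.75 to -0.33. It took Eno3 from 2.68 to 1.60 and Eno1 from 2.30 to 2.06. The ratios below carry no correction for this. The mean ratio of Slc2a4 to Slc2a1 was -1.76 ± 1.4 on day 14 against 0.15 ± 1.8 on day 3, a difference of -1.91 (SD, n = 4, exact p = 0.143). For Pfkm to Pfkl it was 1.64 ± 1.46 against 3.82 ± 1.68 (SD, n = 4, exact p = 0.114), for Pgam2 to Pgam1 0.01 ± 2.95 against 1.97 ± 1.95 (exact p = 0.314), and for Eno3 to Eno1 -1.0 ± 2.43 against 1.10 ± 1.63 (exact p = 0.286). None of the 12 comparisons between days passed after adjustment, with adjusted p-values between 0.514 and 0.886, and the libraries of the days overlapped in each of the 4 ratios. Within treatments, the difference between day 14 and day 3 for Slc2a4 to Slc2a1 was -1.22 in control, -5.34 in d-SMG, -0.10 in s-GAG, and -0.99 in Alg wounds. For Pfkm to Pfkl it was -0.75, -6.26, -1.06, and -0.62, respectively. Both ratios were thus lower on day 14 in 4 of 4 treatments, whereas this held in 3 of 4 for Pgam2 to Pgam1 and in 2 of 4 for Eno3 to Eno1. With the libraries paired by treatment, a test added after the data had been seen, the exact sign-flip p was 0.125 for the first pair of ratios, which is the smallest that 4 pairs allow (two-sided, adjusted p = 0.75).

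Among the remaining enzymes of upper glycolysis, Aldoa, the aldolase of muscle and many other cells, had the widest range in reads, from 168 normalised CPM in the d-SMG library of day 7 to 2490 in the s-GAG library of day 14, with a median of 409. The second highest library of Aldoa was the d-SMG library of day 3 at 2170 normalised CPM, followed by the Alg library of day 7 at 1390. These 3 libraries were the 3 with the highest sums of muscle markers, at 111000, 192800, and 155700 CPM, respectively. Gpi, which isomerizes glucose 6-phosphate, ranged from 59.9 to 271 normalised CPM, and Tpi1, triosephosphate isomerase, from 139 to 1100. Pfkp, the platelet-type phosphofructokinase, showed another order, with its lowest level of 15.4 normalised CPM in the d-SMG library of day 3 and its highest of 105 in the d-SMG library of day 14. Pfkfb3, which makes the activator of phosphofructokinase, ranged from 17 to 145 normalised CPM, Pfkfb4 from 5.09 to 11, and the brain aldolase Aldoc from 0.64 to 3.86.

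In lower glycolysis, Gapdh, often used as a reference gene, was not even across the libraries. Its level was 442, 156, and 135 normalised CPM in control wounds on day 3, 7, and 14, and 817, 114, and 120 in d-SMG wounds. In s-GAG wounds Gapdh was at 140, 151, and 467, and in Alg wounds at 218, 350, and 124 normalised CPM. The highest library exceeded the lowest by 7.16-fold. Pgk1, phosphoglycerate kinase, spanned 106 to 401 normalised CPM and Pkm, pyruvate kinase, spanned 301 to 1640, and both were highest in the d-SMG library of day 3.

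Ldha, which makes lactate from pyruvate and whose promoter is shown above, was at 631, 649, and 494 normalised CPM in control wounds on day 3, 7, and 14, and at 1910, 375, and 541 in d-SMG wounds. In s-GAG wounds Ldha was at 617, 553, and 965, and in Alg wounds at 500, 806, and 545 normalised CPM. Ldhb, the subunit typical of oxidative tissue, was lowest in the d-SMG library of day 3, at 8.04 normalised CPM, where Ldha was highest, and reached 88.0 in the s-GAG library of day 14. The lactate transporter MCT1 (Slc16a1) was steady at 49.5 to 111 normalised CPM, and MCT4 (Slc16a3), the exporter of glycolytic cells, ranged from 2.63 in the control library of day 14 to 36.2 in the d-SMG library of day 3. The pyruvate dehydrogenase kinases hold pyruvate back from mitochondria. Among them Pdk4, a gene of fasting and fat burning in muscle, was the most uneven, at 10.7, 8.53, and 20.6 normalised CPM in control wounds on day 3, 7, and 14, at 99.3, 3.04, and 2.77 in d-SMG wounds, at 11.5, 69.9, and 1.91 in s-GAG wounds, and at 16.4, 22.4, and 12.7 in Alg wounds. Pdk1, the hypoxia-induced kinase, stayed between 9.73 and 20.7 normalised CPM, and Pdk2 between 5.03 and 40.3.

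Of the other hypoxia targets, Bnip3, a mitophagy receptor with 4 hypoxia cores in its promoter window, was at 262, 55.3, and 97.9 normalised CPM in control wounds on day 3, 7, and 14, and at 167, 27.5, and 25.8 in d-SMG wounds. Bnip3 was at 43.6, 188, and 37.3 in s-GAG wounds and at 57.6, 184, and 40.9 normalised CPM in Alg wounds. The control and d-SMG libraries were the higher pair on day 3 and the s-GAG and Alg libraries on day 7. Adm, adrenomedullin, a peptide that widens vessels, ranged from 4.70 to 18.4 normalised CPM, Ankrd37 from 0.78 to 5.52, and Ndrg1 from 48.4 to 116. Car9 had 0 to 7 reads in the other 11 libraries, and no fold is given for it.

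To examine the effect of the dressings day by day, the log2 ratio of normalised CPM between a treated library and its same-day control was taken, over genes with at least 10 reads in the pair, and a difference of at least 2-fold was counted. The highest and lowest genes named are those for which 1 library of the pair held 100 reads or more. These ratios describe pairs of libraries, and their intervals (95%) cover counting error only. In the d-SMG library of day 3, 11 of 37 genes of the list were past 2-fold higher (9.35% of all genes were) and 4 were past 2-fold lower (14.2% of all genes), with a median of 0.17 for the list and -0.03 for all genes. When libraries were scaled by their totals in place of TMM, 7 were past 2-fold higher and 9 lower (share of all genes not given). The median of the list was then -0.25, and that of all genes -0.45. The largest ratios were those of Pdk4 (log2 ratio 3.21, interval 3.01 to 3.41), Pgam2 (2.84, interval 2.79 to 2.89), and Eno3 (1.82, interval 1.79 to 1.85). On the lower side stood Ldhb (-2.26, interval -2.57 to -1.96), Pfkp (-1.68, interval -1.91 to -1.46), and Ndrg1 (-1.08, interval -1.21 to -0.95). Hif1a differed by 0.16 and Gapdh by 0.89 on the log2 scale. The muscle sum was 192800 CPM in this library and 91490 CPM in the control library.

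On day 7 the d-SMG library had 0 genes of the list past 2-fold higher (6.50% of all genes). It had 10 past 2-fold lower (6.20% of all genes). Scaling by library totals gave 1 and 6 (share of all genes not given). The muscle isoforms had a median log2 ratio of -2.77 and the other 33 genes of -0.47, compared with -0.05 for all genes. Eno3 (-3.34, interval -3.47 to -3.21), Pgam2 (-3.09, interval -3.27 to -2.93), and Pfkm (-2.44, interval -2.55 to -2.34) were the lowest, and Pfkp (0.54), Slc2a1 (0.44), and Pfkfb3 (0.23) the highest. The muscle sum was 7585 CPM against 66370 CPM in the control library. On day 14, 5 genes were past 2-fold higher (12.4% of all genes) and 7 lower (15.8% of all genes). Slc2a1 (2.02, interval 1.82 to 2.23), Slc16a3 (1.98, interval 1.55 to 2.47), and Eno1 (1.42, interval 1.35 to 1.48) were the highest, and Pdk4 (-2.88, interval -3.38 to -2.45), Pfkm (-2.87, interval -3.0 to -2.75), and Eno3 (-2.61, interval -2.73 to -2.49) the lowest. The median of the muscle isoforms was -2.34 and that of the other genes 0.17, with muscle sums of 10730 and 68120 CPM in the d-SMG and control libraries.

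In the s-GAG library of day 3, 0 genes of the list were past 2-fold higher (14.2% of all genes) and 7 were lower (10.9% of all genes), with a median of -0.59 for the list and 0 for all genes. Bnip3 (-2.59, interval -2.70 to -2.48), Slc2a4 (-2.37, interval -2.57 to -2.17), and Gapdh (-1.66, interval -1.72 to -1.60) were the lowest, and Pfkp (0.39), Pgam1 (0.30), and Slc2a1 (0.26) the highest. On day 7, 5 were past 2-fold higher (13.3% of all genes) and 8 lower (12.4% of all genes). Pdk4 (3.03, interval 2.78 to 3.31), Bnip3 (1.77, interval 1.67 to 1.88), and Egln3 (1.68, interval 1.47 to 1.89) were the highest, and Hif1a (-1.94, interval -2.01 to -1.88), Hk3 (-1.89, interval -2.13 to -1.67), and Slc16a3 (-1.72, interval -1.98 to -1.46) the lowest. The muscle sums of both s-GAG libraries (54560 and 52070 CPM) were below those of their controls.

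In the s-GAG library of day 14, 15 of 38 genes of the list were past 2-fold higher (27.5% of all genes) and 7 lower (30.0% of all genes). Aldoa (3.01, interval 2.97 to 3.05), Slc2a1 (2.78, interval 2.59 to 2.98), and Pgam2 (2.74, interval 2.67 to 2.80) were the highest, and Pdk4 (-3.41, interval -4.04 to -2.88), Hk2 (-3.33, interval -3.69 to -3.0), and Hif1a (-2.08, interval -2.29 to -1.89) the lowest. The muscle sum was 111000 CPM against 68120 CPM in the control library, and this is the library that stood apart by gene length. The median log2 ratio of all genes was 1.72 for those under 1 kb, 1.08 for 1 to 2 kb, 0.23 for 2 to 4 kb, and -0.86 above 4 kb, and that of the list was 2.76 (2 genes), 0.71 (10 genes), 0.96 (18 genes), and -1.01 (7 genes), respectively. After each ratio was centred on the genes of its length class, a step added after the data had been seen, Aldoa was at 2.77, Slc2a1 at 2.55, Hk2 at -3.56, and Pdk4 at -4.50, whereas Pgam2 was at 1.01, Gapdh at 0.71, and Hif1a at -1.22. With this centring 13 genes were past 2-fold higher and 6 lower. The shares of all genes after centring are not given, and the 27.5% and 30.0% above are for ratios without it. The counts after centring therefore do not set the list against all genes.

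**Figure D4:**
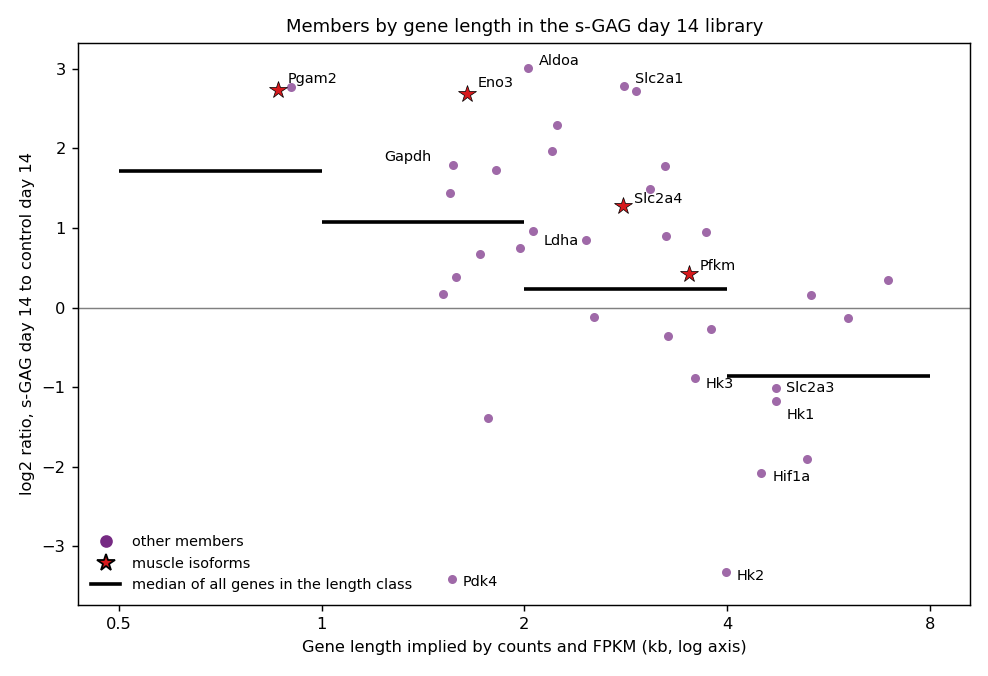
Log2 ratio of the s-GAG to the control library of day 14 for 37 genes of the list against gene length in kb (log axis, length implied by counts and FPKM), with black bars for the median of all genes in each length class. All genes step from 1.72 in the shortest class to -0.86 in the longest, and Aldoa (3.01), Slc2a1 (2.78), Pdk4 (-3.41), and Hk2 (-3.33) lie far from the bar of their class.

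The Alg library of day 3 had 0 genes of the list past 2-fold higher (11.1% of all genes) and 11 lower (8.50% of all genes), with a median of -0.51 for the list and 0 for all genes. Slc2a4 (-2.54, interval -2.74 to -2.35), Bnip3 (-2.18, interval -2.28 to -2.09), and Pfkm (-1.96, interval -2.01 to -1.91) were the lowest, and Pdk4 (0.61), Hk2 (0.46), and Pgam1 (0.42) the highest, with a muscle sum of 50600 CPM against 91490 CPM in the control library. On day 7, 11 were past 2-fold higher (12.5% of all genes) and 5 lower (11.5% of all genes). Pfkm (1.94, interval 1.89 to 2.0), Eno3 (1.86, interval 1.81 to 1.91), and Egln3 (1.79, interval 1.57 to 2.02) were the highest, and Hif1a (-2.06, interval -2.16 to -1.97), Adm (-1.78, interval -2.16 to -1.42), and Slc2a3 (-1.56, interval -1.84 to -1.30) the lowest. The muscle sum was 155700 CPM against 66370 CPM in the control library. On day 14, 5 genes were past 2-fold higher (8.94% of all genes) and 6 lower (11.9% of all genes). Slc16a3 (1.56, interval 1.10 to 2.06), Adm (1.51, interval 1.18 to 1.87), and Eno1 (1.41, interval 1.35 to 1.48) were the highest, and Pgam2 (-3.38, interval -3.61 to -3.16), Eno3 (-2.59, interval -2.71 to -2.47), and Bnip3 (-1.26, interval -1.39 to -1.13) the lowest, with a muscle sum of 14250 CPM.

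**Figure D5:**
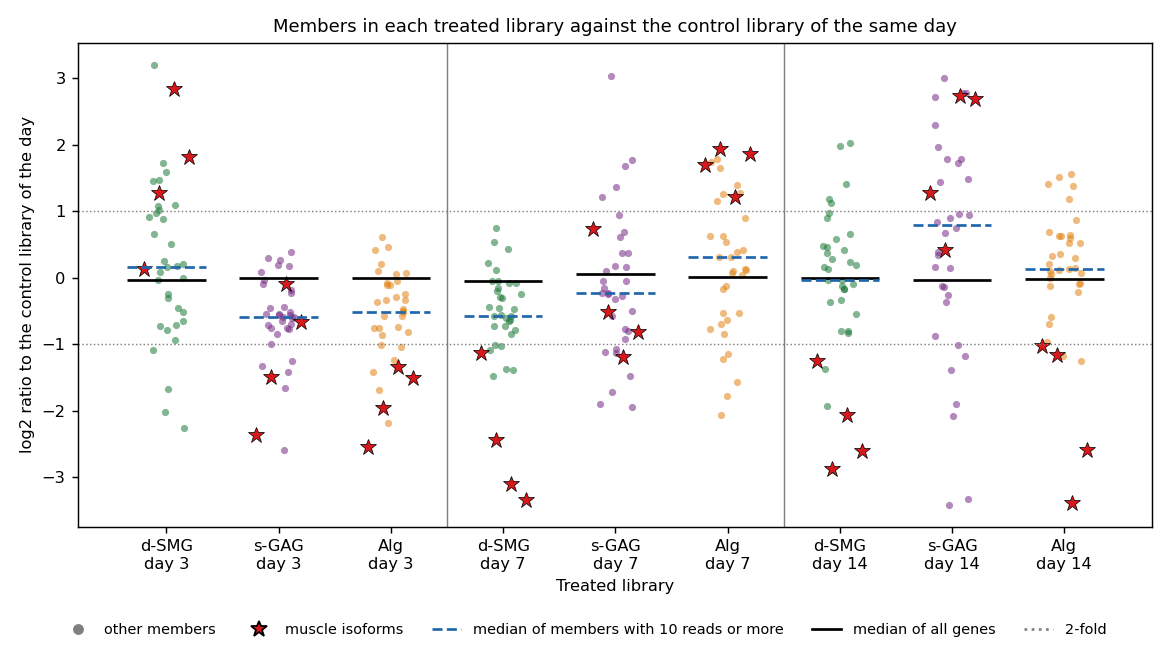
Log2 ratio of each treated library to the control library of the same day, with 1 point per gene of the list (muscle isoforms as red stars), the median of the list (dashed line), the median of all genes (solid line), and 2-fold limits (dotted lines). The median of the stars lies above that of the other genes for d-SMG on day 3 (1.54 against 0.16) and Alg on day 7 (1.78 against 0.12) and below it for d-SMG on day 7 (-2.77) and 14 (-2.34) and Alg on day 14 (-1.87).

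To compare the treatments over the 3 days and the days over the 4 treatments, the quasi-likelihood test of edgeR was run on 16110 genes with treatment and day as terms, so that the days served as replicates of a treatment and the treatments as replicates of a day. A p-value of this model measures only the spread between these libraries. In each of the 6 comparisons 0 of 37 genes of the list and 0% of all genes passed an FDR of 0.05. At an unadjusted p under 0.05 stood 0 genes of the list for d-SMG, 3 for s-GAG, and 0 for Alg against control, and 0, 3, and 2 for day 7 against 3, day 14 against 3, and day 14 against 7. The corresponding numbers over all genes were 218, 1492, 502, 292, 798, and 502. DESeq2 with the same terms called 9, 288, 88, 0, 39, and 7 genes, and the only gene of the list among them was Hk3 for day 14 against day 3. The test of limma on log2(FPKM + 1) called 0, 0, 2, 0, 0, and 0 genes, none of them of the list.

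Over the 3 days, Slc2a1 was higher in s-GAG than in control wounds by 1.22 ± 0.50 on the log2 scale (SE, edgeR quasi-likelihood adjusted p = 0.524) and was higher on 3 of 3 days. Without the s-GAG library of day 14 the difference was 0.85 ± 0.49, and without all libraries of day 14 it was 0.55 ± 0.34. The keratinocyte sum was also higher in s-GAG than in control wounds on each day, at 12760, 16900, and 27930 CPM against 5880, 4405, and 12420 CPM on day 3, 7, and 14, and its part in the level of Slc2a1 was not tested. The single keratinocyte markers did not move together. On day 14, Krt14 had 361150 reads in the s-GAG and 49421 in the control library, whereas Krt10 had 1868 and 47782 and Krt1 1212 and 33853. These libraries held 19725967 and 20189078 reads in total. Slc2a3 differed between the same groups by -1.15 ± 0.41 (edgeR adjusted p = 0.499) and Hk3 by -1.13 ± 0.39 (edgeR adjusted p = 0.493), each lower on 3 of 3 days. For Slc2a3 the value of day 14 depended on gene length. Centring by length class took its log2 ratio on that day from -1.01 to -0.15, and that of Hk3 from -0.88 to -1.11. Without the s-GAG library of day 14, Slc2a3 differed by -1.05 ± 0.47 and Hk3 by -1.04 ± 0.44. The myeloid sum was likewise lower in s-GAG than in control wounds on each day, at 1581, 861, and 343.9 CPM against 3153, 2432, and 1492 CPM, and its part in both differences was not tested. Not every myeloid marker followed the sum. On day 14, Lyz2, the marker with the most reads, had 4566 in the s-GAG and 15970 in the control library, whereas S100a8 had 391 and 100 and S100a9 215 and 156. For d-SMG the difference of Slc2a1 from control was positive on day 7 and 14 and negative on day 3. The medians over the list were 0.07, 0.05, and 0.00 for d-SMG, s-GAG, and Alg against control, compared with -0.03, 0, and -0.03 for all genes. These medians join days that differed in sign, since the median for s-GAG was -0.59 on day 3 and 0.80 on day 14.

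Between days, 26 of the 37 genes were lower on day 14 than on day 3, with a median of -0.43 for the list and 0.01 for all genes. The muscle isoforms had a median of -1.62 and the other genes of -0.32. With the muscle sum as a further term in the model, 19 of the 37 genes were lower, the median of the list was -0.02, and that of the muscle isoforms -0.08. Under this term Pgam2 was at 0.44 ± 0.42, Eno3 at 0.38 ± 0.40, and Aldoa at 0.48 ± 0.54, each of opposite sign to its value without it. The remaining muscle isoforms stayed negative under the muscle term, Slc2a4 at -0.53 ± 0.56 and Pfkm at -0.62 ± 0.48. In other comparisons the term did not always shrink the isoform median. It went from -0.08 to 0.55 for d-SMG against control and from -0.22 to 0.36 for day 14 against day 7. It went from 0.86 to 0.24 for s-GAG, 0.2 to -0.09 for Alg, and -1.32 to -0.29 for day 7 against day 3. For d-SMG, 3 genes of the list were at an unadjusted p under 0.05 with the term and 0 without it, and 0 passed the FDR. Hk3 differed between day 14 and day 3 by -1.59 ± 0.35 on the log2 scale (edgeR adjusted p = 0.882, DESeq2 adjusted p = 0.025), and was lower on day 14 in 4 of 4 treatments, and it differed between day 14 and day 7 by -1.14 ± 0.34 (edgeR adjusted p = 0.904). The adjusted p-value of the former ranged from 0.025 to 1 over 15 alternatives, and the difference from -1.90 to -1.15. Hk2 differed between day 14 and day 3 by -1.70 ± 0.69 (edgeR adjusted p = 0.882), and without the s-GAG library of day 14 and the d-SMG library of day 3 the difference was -0.44 ± 0.24. Slc2a3 differed by -0.80 ± 0.36 between day 14 and 3 and by -0.83 ± 0.36 between day 14 and 7 (edgeR adjusted p = 0.882 and 0.904). Hif1a differed by 0.75 ± 0.56 between day 7 and 3 and by -1.10 ± 0.58 between day 14 and 7, Gapdh by -1.07 ± 0.76 and 0.05 ± 0.75, and Ldha by -0.47 ± 0.52 and 0.04 ± 0.50.

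The other genes of glucose metabolism (37 listed, 32 tested) and of the hypoxia response (21 listed, 21 tested) gave the same count, namely 0 genes of either list past an FDR of 0.05 by edgeR in any of the 6 comparisons. Among the former, Fbp1, the gluconeogenic fructose bisphosphatase, differed by 4.12 ± 1.38 between s-GAG and control (SE, edgeR adjusted p = 0.481) and by 3.29 ± 1.4 between Alg and control (edgeR adjusted p = 1). Slc16a7, a further monocarboxylate transporter, differed by 1.2 ± 0.52 for s-GAG (edgeR adjusted p = 0.539). Among the latter, Hmox1, the heme-degrading enzyme of stressed cells and macrophages, differed by -2.42 ± 0.73 for s-GAG against control (edgeR adjusted p = 0.443). It differed by -1.82 ± 0.67 for day 14 against day 7 (edgeR adjusted p = 0.904). Higd1a, which encodes a mitochondrial protein, differed by 0.96 ± 0.36 for s-GAG (edgeR adjusted p = 0.504). The phosphatase gene Pdp1, which counteracts the pyruvate dehydrogenase kinases, differed by -1.01 ± 0.38 between day 14 and day 3 (edgeR adjusted p = 0.882). The median over the hypoxia list was -0.21, -0.33, and -0.16 for d-SMG, s-GAG, and Alg against control, and that over the glucose list was 0.08, 0.03, and -0.10.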

How the data were processed

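Total RNA of wound tissue was sequenced as stranded, rRNA-depleted libraries with paired reads of 150 bases. The authors deposited read counts per gene without normalization, as whole numbers (25620 genes), and FPKM values (25524 genes), which they scaled by gene length and library total. The submitters' processing notes name bcl2fastq, FastQC, TopHat2, and edgeR without versions. The genome build, the annotation, and the counting tool are not given in the sources used here. Each table held 1 further column that matched no described sample and was not used.

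The samples were grouped by their treatment labels, where GAG was read as s-GAG. Counts were analyzed with edgeR 4.0.16 in R 4.3.3. Libraries were scaled by TMM. Log2 ratios were taken between treated libraries and the same-day control (prior count of 0.5, at least 10 reads in the pair, 2-fold limit). Intervals of 95% cover counting error only. Over days and treatments the quasi-likelihood test was used after filterByExpr, with treatment and day as terms, 6 residual degrees of freedom, with p-values adjusted by Benjamini-Hochberg and a threshold of 0.05. The day thus serves as a block for treatments, as the same days occur in each treatment. Ratios of isoforms were compared with exact permutation tests in scipy 1.17.1. The scripts were tested on simulated data. DESeq2 1.42.0 and limma 3.58.1 served as alternatives, and matplotlib 3.10.9 under Python 3.11.15 drew the plots. Gene lengths were those implied by counts and FPKM.

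Alternatives comprised RLE size factors, library totals, other low-count limits, FPKM with pseudocounts of 1 and 0.1, the exact test of edgeR at a biological coefficient of variation of 0.3, a 4-fold limit, a muscle term, and leaving out libraries, days, or treatments. Centring by length class and leaving out the libraries that stood apart were chosen after the data had been seen. Genes named were the muscle isoforms and their counterparts, any gene called, the 3 highest and 3 lowest ratios of each pair of libraries where the higher library held 100 reads or more, and Hif1a, Gapdh, and Ldha. Genes at an unadjusted p under 0.05 and other members of the list described by their ranges were added after their values were seen. The genes of the list, the marker lists, and the pathway lists were chosen with earlier results of these data known. Promoter windows came from RefSeq (GRCr8).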

Additional observations from a re-analysis of the deposited data

Results flagged for a closer look

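In 111 sets of 4 libraries (37 genes on 3 days), 5 sets had a single library far from the other 3 on the log scale, and all 5 concerned the s-GAG library of day 14. Chance flags about 1 in 20 such sets. Aldoa was at 2490 normalised CPM in this library and at 310 or less in the other 3 libraries of the day. Gapdh was at 467, with the next library at 135, and Ldha at 965, with the next at 545. Egln1 was at 132, with the next at 68.7, and Hk1 at 23.1, with the next lowest at 48.5 normalised CPM. This is the library in which short genes were high and long genes low, and after centring on genes of the same length class the log2 ratio to the control library went from 3.01 to 2.77 for Aldoa, from 0.94 to 0.71 for Egln1, from 0.97 to 0.73 for Ldha, from 1.79 to 0.71 for Gapdh, and from -1.17 to -0.31 for Hk1.

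In 12 cases all 3 treated libraries lay on one side of the control library on one day and on the other side on a further day. The difference between days was not tested, and the 3 treated libraries share the control library of the day, so that 1 control library can set the direction. Median log2 ratios of the 3 treated libraries on day 3 and 14 were -0.86 and 0.23 for Aldoc, -0.75 and 0.65 for Ankrd37, -0.55 and 1.42 for Eno1, 0.61 and -2.88 for Pdk4, and -0.45 and 0.66 for Pfkl. On day 7 and 14 they were -1.37 and 1.19 for Adm, -0.30 and 1.42 for Eno1, -1.12 and 0.66 for Pfkl, -0.58 and 0.98 for Pgam1, and -1.03 and 1.98 for Slc16a3. On day 3 and 7 they were -0.75 and 0.62 for Ankrd37 and 0.18 and -1.94 for Hif1a.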

How the results depend on the processing

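Counts of genes past 2-fold depended on the call rule. The exact test of edgeR at a biological coefficient of variation of 0.3 gave 3, 3, and 6 genes for d-SMG on day 3, 7, and 14, 2, 2, and 16 for s-GAG, and 2, 0, and 2 for Alg on the 3 days. A 4-fold limit gave 4, 3, and 5 genes for d-SMG, 2, 1, and 11 for s-GAG, and 2, 1, and 2 for Alg. FPKM with a pseudocount of 1 gave 4 genes for d-SMG on day 7. The lower numbers under the 4-fold limit follow from its construction, and for the other settings the cause was not tested. The shares of all genes under these rules are not given, so these counts do not set the list against all genes. In the s-GAG library of day 14, 27.5% of all genes were past 2-fold higher and 30.0% lower under the main rule. In the tests over days and treatments, DESeq2 called 1 gene of the list for day 14 against day 3. The fit with no replicate block called 0 genes of the list in all 6 comparisons, the same as with day or treatment as the block, and leaving out any day, any treatment, or the libraries that stood apart also gave 0 to 0 genes of the list. Over all genes the count for s-GAG against control was 66 with the muscle sum as a term, 66 without the d-SMG library of day 3, and 177 without this and the s-GAG library of day 14, compared with 0 in all libraries.

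The isoform ratios depended on single treatments. Leaving out d-SMG turned the difference between day 7 and day 3 for Pgam2 to Pgam1 (range over left-out treatments or libraries -3.08 to 0.13) and Eno3 to Eno1 (-3.06 to 0.06), and leaving out Alg turned that between day 14 and day 7 for Slc2a4 to Slc2a1 (-0.67 to 0.40), Pfkm to Pfkl (-1.28 to 0.35), Pgam2 to Pgam1 (-1.53 to 1.53), and Eno3 to Eno1 (-1.32 to 1.19). The ranges of the remaining ratios were -2.61 to -0.66 and -2.52 to -0.77 for Slc2a4 to Slc2a1 (day 7 and day 14 against day 3), -3.04 to -0.14 and -2.69 to -0.81 for Pfkm to Pfkl, -3.28 to -0.52 for Pgam2 to Pgam1, and -3.04 to -0.61 for Eno3 to Eno1 (day 14 against day 3). With Slc2a1 and Slc2a3 summed as the counterpart, the difference for Slc2a4 between day 14 and 7 was 0.05. With treatment as the replicate block, 0 of the 12 ratio differences passed, and 4 pairs cannot give a p below 0.125. No other counterpart was listed for Pgam2 and Eno3. Of 282 alternatives for counts and ratios, 256 were marked the same as the main setting. For isoform ratios this meant the same sign and the same side of the threshold. For genes past 2-fold it meant only a similar total of higher and lower genes together, so direction was not checked. The change for d-SMG on day 3 from 11 higher and 4 lower to 7 and 9 by library totals was thus not marked. Scaling by library totals placed the median log2 ratio of all genes between -0.48 (s-GAG on day 14, -0.04 by TMM) and 0.31 (d-SMG on day 7, -0.05 by TMM). With 1 library per treatment and day, no setting gives an error for a single day.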
